A study of Mus musculus with 6 samples.

Results

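A set of 10 genes, of the 41721 in the count table, that drive the making of mitochondria and the reading and copying of their DNA were followed in mouse aortic smooth muscle cells (MASMCs) with and without Pdk4. They were Ppargc1a, Ppargc1b, Pprc1, Nrf1, Gabpa, Esrra, Tfam, Tfb1m, Tfb2m and Polg. The rule took the genes by name, which found 9 of them, and Esrra was taken from an unnamed row whose description names it. RNA was sequenced from 3 Pdk4fl/fl and 3 Pdk4SMKO cultures of cells isolated by collagenase from the abdominal aorta of 10-week-old C57BL/6J mice, used at passages 4 to 8 and serum-starved for 48 h. Both genotypes carried loxP sites around exons of Pdk4, both received tamoxifen at 75 mg/kg per day for 5 days, and all 6 cultures were treated with Ang II, for which the study's methods give 1 μM and 48 h. Only Pdk4SMKO mice carried the Myh11-Cre transgene, which acts in smooth muscle and lies on the Y chromosome. The comparison of Pdk4SMKO with Pdk4fl/fl asks how loss of Pdk4, a kinase that holds back pyruvate dehydrogenase, goes with the levels of these regulators. No untreated cells were in the comparison, and the labels do not say that the cultures came from separate animals, so that each p-value measures the spread between these samples.

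Mitochondria hold a small circular genome, but nearly all of their proteins are encoded in the nucleus. Coactivators of the PGC-1 family (Ppargc1a, Ppargc1b and Pprc1) do not bind DNA themselves; they dock on nuclear factors such as NRF1, the ETS-family factor GABP and the orphan receptor ERRα (Esrra), which bind the promoters of genes for the respiratory chain and for the mitochondrial transcription machinery. Inside the organelle TFAM packs and bends mitochondrial DNA and opens its promoters with TFB2M for the RNA polymerase, TFB1M methylates the small ribosomal RNA, and POLG copies the genome.

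Promoter windows, 250 bases before to 50 after a start site, were taken from RefSeq (GRCm38.p6) for 9 of the 10 genes. They are shown because NRF1, GABP and ERRα are among the genes measured, so that their known DNA motifs could be looked for. Capitals mark exact matches, searched on both strands, to the NRF1 core GCGCANGCG, the ETS core CCGGAAG that GABP reads and the ERR site TCAAGGTCA. Of 32851 mouse promoter windows of this length, 6.249% held the NRF1 core, 8.858% the ETS core and 0.423% the ERR site, and none of these motifs overlapped in the windows shown. Tfam (chr10:71237995-71238294, minus strand) held the ETS core 47 to 41 bases before the start.
Tfam: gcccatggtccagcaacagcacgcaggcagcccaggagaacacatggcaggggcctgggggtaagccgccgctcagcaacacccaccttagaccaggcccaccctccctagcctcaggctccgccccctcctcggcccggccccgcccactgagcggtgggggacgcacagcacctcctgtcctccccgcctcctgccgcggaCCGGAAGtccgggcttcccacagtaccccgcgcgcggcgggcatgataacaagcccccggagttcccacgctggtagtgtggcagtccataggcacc
Polg (chr7:79466224-79466523, minus strand) held it 38 to 32 bases before the start.
Polg: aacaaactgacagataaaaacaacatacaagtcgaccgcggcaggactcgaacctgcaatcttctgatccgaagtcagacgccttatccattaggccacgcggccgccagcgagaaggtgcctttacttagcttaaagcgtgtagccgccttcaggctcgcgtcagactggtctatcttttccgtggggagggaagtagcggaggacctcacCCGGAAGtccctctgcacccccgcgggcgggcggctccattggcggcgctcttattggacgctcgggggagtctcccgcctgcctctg
Tfb2m (chr1:179546227-179546526, minus strand) held the NRF1 core on the opposite strand, at bases 13 to 21 after the start.
Tfb2m: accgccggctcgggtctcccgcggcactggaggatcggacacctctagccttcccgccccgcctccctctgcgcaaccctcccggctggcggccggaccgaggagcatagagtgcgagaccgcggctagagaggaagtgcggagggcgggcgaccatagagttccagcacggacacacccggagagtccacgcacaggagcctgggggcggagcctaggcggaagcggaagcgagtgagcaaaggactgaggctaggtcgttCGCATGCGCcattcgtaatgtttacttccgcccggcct
Esrra (chr19:6921759-6922058, minus strand) held the NRF1 core 141 to 133 bases before the start.
Esrra: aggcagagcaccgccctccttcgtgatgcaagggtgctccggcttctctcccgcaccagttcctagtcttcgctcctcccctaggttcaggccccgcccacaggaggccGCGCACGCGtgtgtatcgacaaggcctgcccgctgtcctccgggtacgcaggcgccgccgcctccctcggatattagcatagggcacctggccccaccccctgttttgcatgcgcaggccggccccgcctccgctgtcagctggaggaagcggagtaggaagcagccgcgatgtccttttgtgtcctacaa
Gabpa, which encodes the DNA-binding subunit of GABP (chr16:84834874-84835173, plus strand), held the ETS core on the opposite strand, 93 to 87 bases before the start.
Gabpa: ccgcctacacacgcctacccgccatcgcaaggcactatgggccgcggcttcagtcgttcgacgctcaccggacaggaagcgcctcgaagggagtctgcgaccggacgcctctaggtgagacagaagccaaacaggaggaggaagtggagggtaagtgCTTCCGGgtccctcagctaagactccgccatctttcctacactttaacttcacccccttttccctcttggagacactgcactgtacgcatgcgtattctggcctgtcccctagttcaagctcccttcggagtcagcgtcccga
Ppargc1a (chr5:51567676-51567975, minus strand) held none of the 3 motifs.
Ppargc1a: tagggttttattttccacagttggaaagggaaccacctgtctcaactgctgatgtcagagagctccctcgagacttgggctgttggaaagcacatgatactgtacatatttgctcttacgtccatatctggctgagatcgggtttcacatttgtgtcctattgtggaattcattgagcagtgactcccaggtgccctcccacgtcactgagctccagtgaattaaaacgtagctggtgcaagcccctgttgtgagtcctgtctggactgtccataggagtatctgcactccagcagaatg
Windows of Pprc1, Nrf1 (2 windows) and Tfb1m also held no exact match. A match is a run of letters and not a measurement of binding, and no binding data were analysed here.

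Gene counts per library summed to 16526044 at the least and 22481670 at the most. CPM is a count scaled by its library's total, and TMM multiplies that total by a factor per library, here 0.784 to 1.26. The floor of detection, for counting error alone, was taken as 3 counts, which equalled 0.132 to 0.227 CPM after TMM scaling. Pdk4 itself fell from 35.0 ± 3.07 to 6.93 ± 2.11 CPM after TMM scaling (SD, n = 3 each), with a log2 fold change of -2.34. Libraries of one genotype did not match in all respects what the labels and methods state. Xist, which silences one X chromosome in female cells, had 3, 4 and 5 counts in the Pdk4fl/fl libraries and 610, 347 and 321 in the Pdk4SMKO libraries, although the Cre transgene lies on the Y chromosome, and no row of the table lies on the Y chromosome. Since all 3 Pdk4SMKO libraries carried it, no result could be recomputed without them, and Xist and genotype cannot be told apart. Smooth muscle markers summed to 785 to 811 CPM in Pdk4fl/fl and 723 to 954 CPM in Pdk4SMKO cells, led by Smtn (280 against 57.5 CPM) and Acta2 (233 against 701 CPM). Of the 8, 3 were called lower and 4 higher, and Myh11, the contractile myosin whose promoter drives the Cre, was at 0.613 and 2.39 CPM. Of all genes tested, 26.5% were called lower and 32.8% higher, by the limits given in the next paragraph. A marker list with counts near these shares is not itself a result about a cell type. Mesothelial markers summed to 74.2 to 99.99 CPM against 723 to 1325 CPM, with 7 of 7 tested called higher and 0 lower (Krt19 from 79.2 to 279 CPM, Msln from 6.43 to 410 CPM), and fibroblast markers to 717 to 750 CPM against 1980 to 3421 CPM (3 of 8 higher, 1 lower, Gsn 569 and 624 CPM, Col14a1 from 25.2 to 1740 CPM). Macrophage markers summed to 21.4 to 38.0 CPM against 9.71 to 30.5 CPM, with 5 of 6 higher and 1 lower (Cd68 from 31.2 to 4.29 CPM, C1qb from 0 to 4.32 CPM, Adgre1, C1qa, C1qb and Tyrobp at 0 counts in all Pdk4fl/fl libraries, Itgam at 0 counts in all 6), and proliferation markers to 801 to 992 CPM against 304 to 496 CPM (1 of 8 higher, 2 lower, Mcm2 from 487 to 62.2 CPM, Top2a 166 and 133 CPM). Of the remaining lists, the brown and white adipocyte list summed to 5.45 to 33.1 CPM over all libraries, nearly all of it Prdm16 (5.95 against 26.8 CPM) with Ucp1 at 0.224 and 0.0478 CPM and Cfd at 0 counts, the striated muscle list to 1.19 to 9.33 CPM (Tnnt2 from 6.39 to 1.76 CPM, Myh6, Myog and Myod1 at 0 counts), and the endothelial list to 3.33 to 24.9 CPM (Kdr from 16.5 to 2.96 CPM). The part of these cell types and of the Xist difference in the results that follow was not tested, and in bulk RNA fewer cells of a type and less RNA per cell cannot be told apart.

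The coactivators Ppargc1a and Pprc1 and the factor Gabpa fell in Pdk4SMKO cells, to 21.3%, 33.9% and 38.2% of the Pdk4fl/fl mean, while Esrra and Tfam rose 2.17-fold and 2.41-fold, a rise that turned into a fall when libraries were scaled to Actb. Calls required both an adjusted p under 0.05 from edgeR's quasi-likelihood test (Benjamini-Hochberg over 14085 tested genes) and a fold change of at least 2. Of the 9 regulators with enough counts to be tested, 3 were called lower, against 26.5% of all genes tested, and 2 higher, against 32.8%. Together 5 of 9 were called (59.3% of all genes), 8 of 9 had an adjusted p under 0.05 at any fold (79.1% of all genes), and 8 of 9 had no overlap between the genotypes in CPM (81.8% of all genes). These shares are close to the background, so the number of regulators that moved is not itself a result about them. Their median log2 fold change was 0.51, beside 0.12 for all genes tested. Actb, the reference gene of the study's RT-qPCR, rose from 247 to 2363 CPM, and scaling every library to it shifted the median of all genes by -3.26, with 9 regulators then called lower and 0 higher. Scaling by library size alone shifted that median by 0.60 and left 1 regulator called lower and 5 higher.

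**Figure D1:**
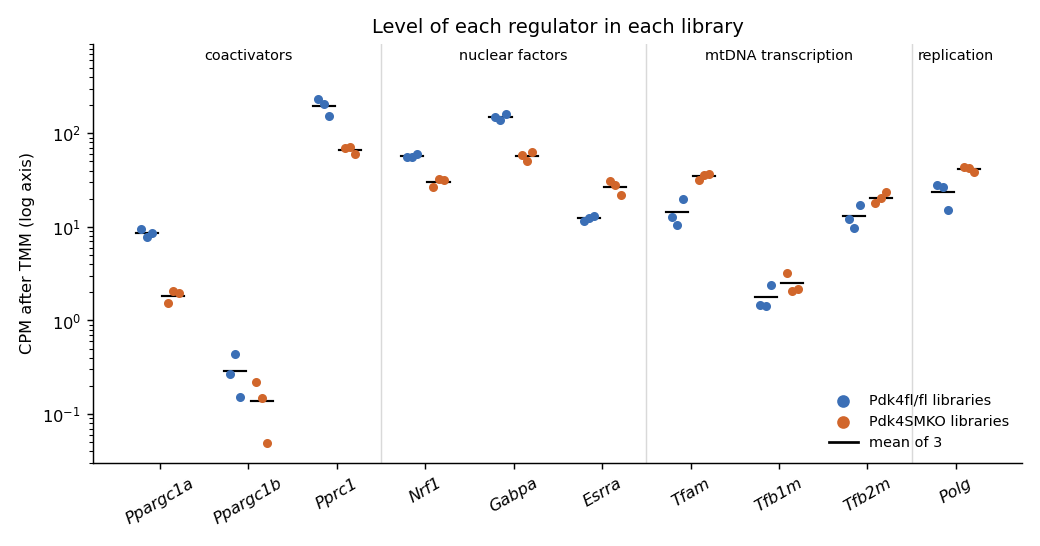
CPM after TMM scaling, on a log axis, of the 10 regulators in each of the 3 Pdk4fl/fl and 3 Pdk4SMKO libraries; points are libraries and black lines are means of 3. Genotypes do not overlap for 8 genes and overlap for Ppargc1b and Tfb1m. On the scale of Actb all 9 tested regulators, including those higher here, are lower in Pdk4SMKO.

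Ppargc1a encodes PGC-1α, the best known inducer of mitochondrial biogenesis, which some tissues raise in cold or exercise. Its gene (MGP_C57BL6NJ_G0029973) spans chromosome 5 from 52521630 to 52642764 on the minus strand of the C57BL/6NJ assembly used by the table. It had 144, 143 and 113 counts in the Pdk4fl/fl libraries and 35, 41 and 40 in the Pdk4SMKO libraries, or 9.60, 7.85 and 8.55 CPM against 1.54, 2.04 and 1.96 CPM. Every Pdk4SMKO library lay far below every Pdk4fl/fl library. The means were 8.67 ± 0.879 and 1.85 ± 0.271 CPM (SD, n = 3), a log2 fold change of -2.23 (SE 0.24, adjusted p = 1.2e-05, edgeR's quasi-likelihood test), the most negative among the 9 regulators tested. The exact two-sided permutation test gave p = 0.1, the smallest that 3 against 3 allows, as it did for each regulator without overlap.

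Pprc1 encodes PRC, the family member that responds to growth signals in dividing cells. Located on chromosome 19 from 46841109 to 46871125 (MGP_C57BL6NJ_G0025612, plus strand), it had by far the most counts of the 3 coactivators. The counts were 3475, 3735 and 2042 in Pdk4fl/fl and 1601, 1419 and 1214 in Pdk4SMKO libraries, or 232, 205 and 155 CPM against 70.3, 70.6 and 59.6 CPM. Pdk4fl/fl replicate 3 was the lowest of its genotype and still stood above all Pdk4SMKO libraries. From 197 ± 39.2 to 66.8 ± 6.29 CPM (SD, n = 3), Pprc1 fell by 1.56 on the log2 scale (SE 0.16, adjusted p = 9e-06, edgeR's quasi-likelihood test), and by less than 2-fold when libraries were scaled by size alone (log2 fold change -0.96).

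Ppargc1b (MGP_C57BL6NJ_G0024892, chromosome 18 from 62831623 to 62948640, minus strand) encodes PGC-1β, the coactivator tied to the resting level of mitochondria, and was barely detected. It had 4, 8 and 2 counts in Pdk4fl/fl and 5, 3 and 1 in Pdk4SMKO libraries (0.267, 0.439 and 0.151 against 0.220, 0.149 and 0.0491 CPM). The genotypes overlapped, and the gene was under the filter on low counts. Fitted without that filter, its log2 fold change was -0.97 with an SE of 0.97 (adjusted p = 0.414, edgeR's quasi-likelihood test), so that no difference was detectable at this depth.

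Within a library the ratio of 2 genes' counts does not depend on how the library is scaled. The counts of Ppargc1a relative to those of Pprc1 were 0.0416, 0.0384 and 0.0556 in Pdk4fl/fl and 0.0222, 0.0292 and 0.0333 in Pdk4SMKO libraries. All 3 Pdk4SMKO ratios were lower, by 0.68 on the log2 scale (exact two-sided permutation test, p = 0.1, adjusted p = 0.25 over the 5 ratios compared, 3 against 3 libraries). The ratio of Ppargc1a to Ppargc1b overlapped between genotypes (log2 difference -1.19, exact two-sided permutation test, p = 0.2, adjusted p = 0.333), and its difference ranged from -1.73 without Pdk4SMKO replicate 3 to -0.70 without Pdk4SMKO replicate 1.

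Of the 3 DNA-binding factors, Gabpa fell, Esrra rose on every scaling run except that to Actb, and Nrf1 was lower without reaching 2-fold. Gabpa lies on chromosome 16 from 88191574 to 88221651 (MGP_C57BL6NJ_G0023387, plus strand). It had 2242, 2555 and 2132 counts in Pdk4fl/fl and 1339, 1016 and 1283 in Pdk4SMKO libraries, or 149, 140 and 161 CPM against 58.8, 50.6 and 62.9 CPM. The lowest Pdk4fl/fl library stood well above the highest Pdk4SMKO library. Its means of 150 ± 10.6 and 57.4 ± 6.30 CPM (SD, n = 3) gave a log2 fold change of -1.39 (SE 0.13, adjusted p = 4e-06, edgeR's quasi-likelihood test), which became -0.78 and under 2-fold with scaling by library size alone. Gabpa overlaps Atp5j on the opposite strand over 701 bases, and since the use of strand in counting is not given in the sources used here, reads there cannot be assigned to one gene; Atp5j counts were 462, 500 and 669 in Pdk4fl/fl and 1102, 923 and 1109 in Pdk4SMKO libraries, opposite in direction to Gabpa.

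Nrf1 (MGP_C57BL6NJ_G0030970) spans chromosome 6 from 28700585 to 28815631 on the plus strand and encodes nuclear respiratory factor 1. It had 845, 1025 and 801 counts in Pdk4fl/fl and 613, 658 and 649 in Pdk4SMKO libraries, or 56.3, 56.3 and 60.6 CPM against 26.9, 32.7 and 31.8 CPM. The genotypes did not overlap. At 57.7 ± 2.49 and 30.5 ± 3.14 CPM (SD, n = 3) the log2 fold change was -0.92 (SE 0.13, adjusted p = 7.6e-05, edgeR's quasi-likelihood test), a difference past the p threshold and just under the limit of 2-fold. The Nrf1 counts relative to Gabpa were 0.377, 0.401 and 0.376 in Pdk4fl/fl and 0.458, 0.648 and 0.506 in Pdk4SMKO libraries. This ratio was higher in all 3 Pdk4SMKO libraries, by 0.47 on the log2 scale (exact two-sided permutation test, p = 0.1, adjusted p = 0.25).

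Esrra, on chromosome 19 from 4088753 to 4102965 (MGP_C57BL6NJ_G0025182, minus strand), encodes ERRα, an orphan receptor that works with PGC-1α on genes of fat oxidation and respiration. Its counts were 172, 226 and 174 in Pdk4fl/fl and 697, 564 and 444 in Pdk4SMKO libraries, or 11.5, 12.4 and 13.2 CPM against 30.6, 28.1 and 21.8 CPM. The Pdk4fl/fl libraries lay close together and below all Pdk4SMKO libraries. Esrra rose from 12.3 ± 0.853 to 26.8 ± 4.54 CPM (SD, n = 3), a log2 fold change of 1.12 (SE 0.17, adjusted p = 0.00014, edgeR's quasi-likelihood test) that turned to -2.15 relative to Actb.

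**Figure D2:**
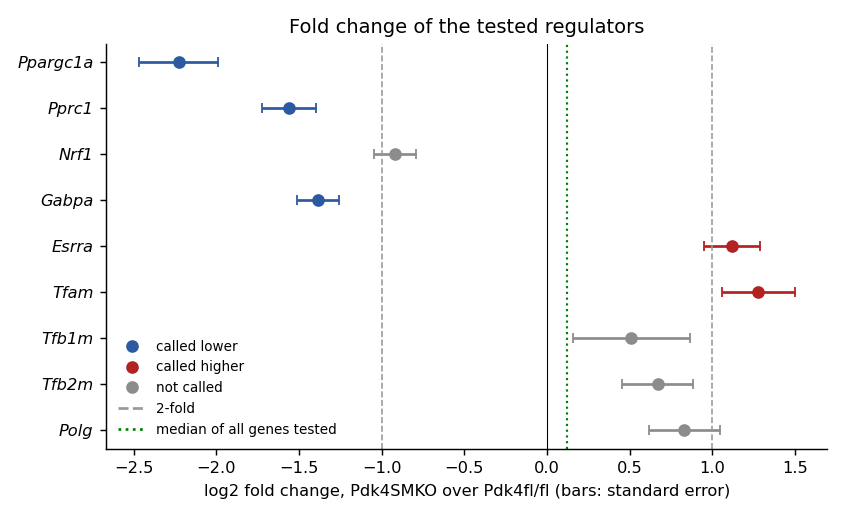
Log2 fold change of the 9 tested regulators, Pdk4SMKO over Pdk4fl/fl, with bars of 1 standard error from edgeR's fit after TMM scaling; dashed lines mark 2-fold and the dotted line the median of all genes tested (0.12). Ppargc1a, Pprc1 and Gabpa are called lower, and Esrra and Tfam higher; the 5 positive values turn negative when scaled to Actb.

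All 4 genes that act inside the mitochondrion had a positive log2 fold change after TMM scaling and a negative one relative to Actb, and 1 of them, Tfam, was called. Tfam (MGP_C57BL6NJ_G0017737, chromosome 10 from 73744069 to 73756794, minus strand) encodes the protein that coats mitochondrial DNA and goes with its copy number. It had 193, 192 and 263 counts in Pdk4fl/fl and 716, 723 and 757 in Pdk4SMKO libraries, or 12.9, 10.5 and 19.9 CPM against 31.4, 36.0 and 37.1 CPM. Pdk4fl/fl replicate 3 stood above the other 2 of its genotype, and all 3 were below the Pdk4SMKO libraries. Tfam rose from 14.4 ± 4.87 to 34.9 ± 3.01 CPM (SD, n = 3), a log2 fold change of 1.28 (SE 0.22, adjusted p = 0.000348, edgeR's quasi-likelihood test) that ranged from 1.11 to 1.56 when single libraries were dropped and was -1.98 relative to Actb.

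Tfb2m (MGP_C57BL6NJ_G0017259, chromosome 1 from 191903515 to 191935512, minus strand) is the partner of TFAM in opening mitochondrial promoters. Its counts were 184, 178 and 224 in Pdk4fl/fl and 409, 406 and 481 in Pdk4SMKO libraries, or 12.3, 9.77 and 17.0 CPM against 18.0, 20.2 and 23.6 CPM. The highest Pdk4fl/fl library, again replicate 3, nearly reached the lowest Pdk4SMKO library. Means of 13.0 ± 3.64 and 20.6 ± 2.84 CPM (SD, n = 3) gave a log2 fold change of 0.67 (SE 0.21, adjusted p = 0.0151, edgeR's quasi-likelihood test), short of 2-fold and -2.59 relative to Actb. Without Pdk4SMKO replicate 3 or without Pdk4fl/fl replicate 2, the adjusted p rose to 0.0589 and 0.0510, the 2 alternatives of 15 in which it passed 0.05.

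Tfb1m, its relative that modifies ribosomal RNA (MGP_C57BL6NJ_G0023518, chromosome 17 from 641842 to 681151, minus strand), had 22, 26 and 32 counts in Pdk4fl/fl and 74, 42 and 44 in Pdk4SMKO libraries. The CPM were 1.47, 1.43 and 2.42 against 3.25, 2.09 and 2.16, with overlap between the genotypes (exact two-sided permutation test, p = 0.3). With 1.77 ± 0.563 and 2.50 ± 0.650 CPM (SD, n = 3) its log2 fold change of 0.51 (SE 0.35, adjusted p = 0.204, edgeR's quasi-likelihood test) did not pass the test, was 1.12 with scaling by library size alone and -2.75 relative to Actb. The gene overlaps Tiam2 over 135 bases and Cldn20 over 660 bases on the opposite strand, and Tiam2 had 524 to 1027 counts in Pdk4fl/fl and 188 to 226 in Pdk4SMKO libraries, so reads in the shared bases could matter for so low a gene. The ratio of Tfb1m to Tfb2m did not separate the genotypes (log2 difference -0.19, exact two-sided permutation test, p = 0.6, adjusted p = 0.6).

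Polg encodes the catalytic subunit of the polymerase that copies mitochondrial DNA (MGP_C57BL6NJ_G0032872, chromosome 7 from 84528771 to 84550124, minus strand). It had 424, 491 and 198 counts in Pdk4fl/fl and 1000, 864 and 781 in Pdk4SMKO libraries, or 28.3, 27.0 and 15.0 CPM against 43.9, 43.0 and 38.3 CPM. Pdk4fl/fl replicate 3 was the lowest here, where it had been the highest for Tfam, Tfb1m and Tfb2m, and the genotypes did not overlap. At 23.4 ± 7.32 and 41.7 ± 3.00 CPM (SD, n = 3) the log2 fold change was 0.83 (SE 0.22, adjusted p = 0.00491, edgeR's quasi-likelihood test), short of 2-fold. It was 0.58 without Pdk4fl/fl replicate 3 and -2.44 relative to Actb. Fanci overlaps Polg over 4034 bases on the opposite strand and had 21, 15 and 9 counts in Pdk4fl/fl and 125, 69 and 76 in Pdk4SMKO libraries, well under those of Polg. The Tfam to Polg ratio was 0.456, 0.392 and 1.33 in Pdk4fl/fl and 0.716, 0.837 and 0.969 in Pdk4SMKO libraries. Replicate 3 of Pdk4fl/fl carried the highest ratio of all 6 libraries, and its genotypes overlapped (log2 difference 0.43, exact two-sided permutation test, p = 0.5, adjusted p = 0.6). The difference was 0.21 without Pdk4fl/fl replicate 1, 0.10 without Pdk4fl/fl replicate 2 and 0.98 without Pdk4fl/fl replicate 3.

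Levels were divided by the gene length given with the counts, to set genes against each other. That length (10725 bases for Polg, 1327 for Tfb1m) need not be that of the transcripts in these cells. The order between genes is therefore approximate. In Pdk4fl/fl cells Gabpa (26.4 CPM per kb) and Pprc1 (26.2 CPM per kb) led and their libraries overlapped. A step below came Tfb2m (6.82 CPM per kb), Esrra (5.97 CPM per kb) and Nrf1 (5.62 CPM per kb), each overlapping its neighbour. Tfam (3.25 CPM per kb), Polg (2.18 CPM per kb), Tfb1m (1.34 CPM per kb) and Ppargc1a (1.33 CPM per kb) followed, again with overlap between neighbours, and Ppargc1b (0.0716 CPM per kb) was last and apart. In Pdk4SMKO cells the order opened with Esrra (13.0 CPM per kb), Tfb2m (10.8 CPM per kb), Gabpa (10.1 CPM per kb), Pprc1 (8.89 CPM per kb) and Tfam (7.85 CPM per kb), in which every neighbour overlapped the next. Polg (3.89 CPM per kb), Nrf1 (2.97 CPM per kb), Tfb1m (1.88 CPM per kb), Ppargc1a (0.282 CPM per kb) and Ppargc1b (0.0349 CPM per kb) then lay apart from one another. By these means Esrra went from rank 4 to rank 1 and Nrf1 from rank 5 to rank 7, and the order within a library does not depend on its scaling.

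**Figure D3:**
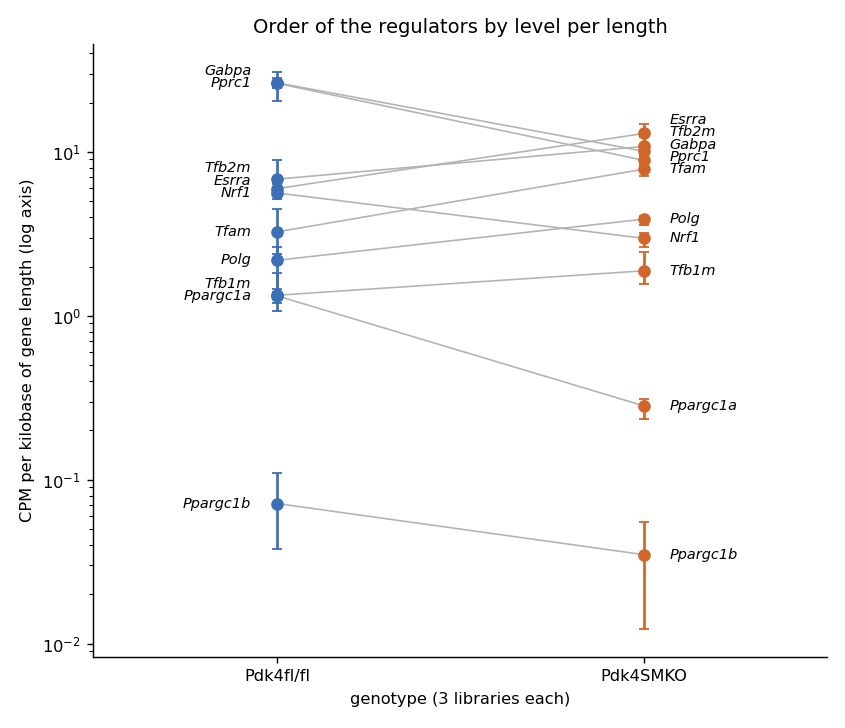
CPM per kilobase of gene length, on a log axis, of the 10 regulators in Pdk4fl/fl and Pdk4SMKO cells; points are means of 3 libraries, bars run from the lowest to the highest library and grey lines join a gene. By this approximate measure Gabpa and Pprc1 stand apart at the top in Pdk4fl/fl cells, while 5 genes with overlapping neighbours share the top in Pdk4SMKO cells.

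The other genes of the pathway were counted in 8 lists. Of their 98 tested genes 30 were called lower and 24 higher (55.1% called, beside 59.3% of all genes), with a median log2 fold change of -0.20, and relative to Actb 93 were lower and 0 higher. The 30 lower genes include Pdk4, the gene deleted by design. The balance of the 2 directions turned with upper-quartile factors, to 25 lower and 27 higher, and with library size alone, to 21 lower and 35 higher. All directions that follow are those on TMM scaling. By list the share called ran from 23.1% to 69.2%, beside the 59.3% of all genes. Of 5 tested genes of mitochondrial transcription, 3 were higher and 0 lower (median 1.03): Tefm, the elongation factor of the RNA polymerase (1.22 to 8.22 CPM, log2 fold change 2.78), Mterf3 (log2 fold change 1.81) and Polrmt, the polymerase itself (11.2 to 22.9 CPM, log2 fold change 1.03). The share called in this list, 60%, was near that of all genes. With RLE factors, DESeq2 or protein-coding genes alone, 1 gene of the list was called lower, as without Pdk4fl/fl replicate 3 or Pdk4SMKO replicate 3. Only 2 were called higher with at least 10 counts in every library. Leaving out Pdk4fl/fl replicate 1, Pdk4fl/fl replicate 3 or Pdk4SMKO replicate 1 also gave 2 higher. Mterf1a was under the filter and Mterf1b was not analysed here. Of 13 genes of mitochondrial DNA replication and maintenance, 5 were higher and 4 lower (median 0.34). Rnaseh1, which removes RNA primers (log2 fold change 2.08), Dna2, a helicase and nuclease (1.94), and Primpol, a primase (1.88), rose, while Mgme1, an exonuclease that trims ends (-2.52), Top3a, a topoisomerase (-1.72), and Polg2, the accessory subunit of POLG (7.86 to 2.57 CPM, log2 fold change -1.61), fell. The catalytic and accessory subunits of the polymerase thus had fold changes of opposite sign after TMM scaling, 0.83 for Polg and -1.61 for Polg2, and the same sign relative to Actb.

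Supply of nucleotides to mitochondrial DNA also held both directions, with 2 of 7 genes lower and 2 higher (median 0.67), or 1 lower and 4 higher with library size alone. Tk2, the thymidine kinase of mitochondria (2.31 to 26.6 CPM, log2 fold change 3.55), and Rrm2b, a ribonucleotide reductase subunit used outside S phase (log2 fold change 2.52), rose after TMM scaling. Slc25a33, a carrier of pyrimidine nucleotides, fell from 80.5 to 2.12 CPM (log2 fold change -5.24), and Slc25a36, its relative, by 1.15 on the log2 scale. Processing of mitochondrial RNA had 7 of 19 genes lower and 3 higher (median -0.66), but 4 and 4 with upper-quartile factors and 3 and 4 with library size alone. Among those that fell were Trmt10c, a subunit of mitochondrial RNase P (81.7 to 15.1 CPM, log2 fold change -2.44), Tbrg4 (log2 fold change -2.36) and Lrpprc, which stabilizes mitochondrial messengers (290.0 to 69.5 CPM, log2 fold change -2.06). Fastk, Fastkd2 and Fastkd1, of a family of mitochondrial RNA-binding proteins, rose by 1.59, 1.11 and 1.07 on the log2 scale with TMM.

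Around the coactivators and factors, 5 of 13 tested partners were lower and 3 higher (median 0.10; 3 and 5 with library size alone), and Esrrb and Esrrg, the relatives of Esrra, were under the filter. Gabpb1, the other subunit of GABP, fell as Gabpa did, from 116 to 25.9 CPM (log2 fold change -2.16). Yy1 (log2 fold change -1.65) and Mef2d (-1.61) fell too, while Mef2c (1.95), Hcfc1, a cofactor of PGC-1 proteins (1.17), and Rxra, the partner of many nuclear receptors (1.14), rose on the TMM scale. Of 19 genes listed here under upstream control of PGC-1, 6 were lower and 6 higher (median 0.06). Sirt1, the deacetylase of PGC-1α, went from 354 to 16.1 CPM (log2 fold change -4.46), Fnip1, a partner of folliculin, from 1057 to 60.8 CPM (-4.12) and Crtc2, a CREB coactivator, from 125 to 26.9 CPM (-2.22). Those that rose most on TMM scaling were Tbc1d16 (2.12), Nrip1, a corepressor also called RIP140 (1.75), and Prkag1, a subunit of AMPK (1.58). Whether Tbc1d16 acts on PGC-1 was not tested.

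Among the classical targets of NRF1 and GABP, 3 of 13 tested genes were called, all lower (median -0.25), or 23.1% beside 59.3% of all genes. With no fold limit 6 were lower and 3 higher, or 9 of 13, beside 79.1% of all genes. With library size alone 2 were lower and 3 higher, beside 2390 lower and 6184 higher of 14085 genes. The single direction thus did not hold under these choices. The 3 called on TMM scaling were Tomm20, a receptor of protein import (657 to 167 CPM, log2 fold change -1.98), Sdhd of complex II (-1.63) and Cox7a2 of complex IV (-1.01). Cox17 had 0 counts in all libraries. Targets of ERRα and PGC-1 held 3 lower and 2 higher genes of 9 tested (median -0.86), with Cpt1b and Ucp3 under the filter. Fabp3, a carrier of fatty acids, fell from 84.4 to 2.41 CPM (log2 fold change -5.11), Mfn2, which fuses outer membranes, from 392 to 46.0 CPM (-3.09), and the third was Pdk4, the gene deleted here. The fall of Pdk4 was set by the design, and Pdk4 enters both the count and the median of this list. Lpl, which frees fatty acids from lipoproteins (log2 fold change 2.89), and Acadm, of fat oxidation (10.5 to 46.9 CPM, log2 fold change 2.16), rose too by the TMM values. Ogdh, an enzyme of the citric acid cycle, rose from 60.2 ± 5.64 to 151 ± 7.24 CPM (SD, n = 3, log2 fold change 1.32, SE 0.12), less than Actb did. By RT-qPCR relative to Actb, the study reported Tfam, Tfb1m, Ogdh and Ppargc1a as higher in Ang II-treated Pdk4SMKO cells. In the counts used here, after TMM scaling, Ppargc1a was lower, Tfb1m did not pass the test, and Tfam and Ogdh were higher. Relative to Actb, the scale of the RT-qPCR, the log2 fold changes were -5.49 for Ppargc1a, -2.75 for Tfb1m and -1.98 for Tfam. Ogdh rose less than Actb (log2 fold change 1.32 against 3.26), so it too was lower on that scale. These directions are opposite to those the study reported, and the reason was not tested.

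**Figure D4:**
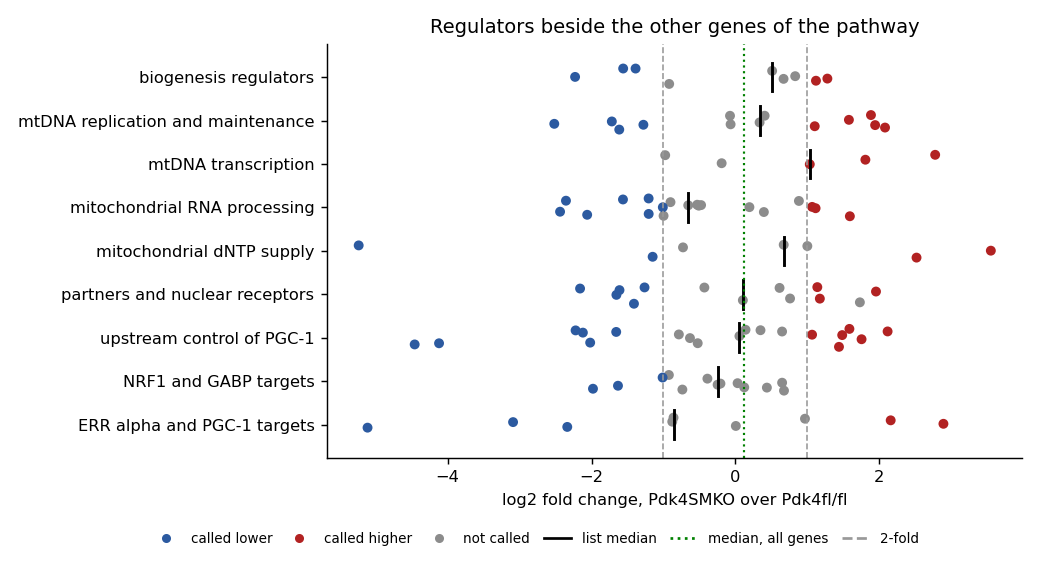
Log2 fold change after TMM scaling, Pdk4SMKO over Pdk4fl/fl, of the 9 tested regulators and of the 98 tested genes in 8 pathway lists; each point is a gene, black bars are list medians, dashed lines mark 2-fold and the dotted line is the median of all genes. Among lists without the deleted Pdk4, medians run from -0.66 for mitochondrial RNA processing to 1.03 for mitochondrial transcription. The list of ERRα and PGC-1 targets, which holds Pdk4, has a median of -0.86. Relative to Actb 93 of the 98 genes are lower.

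A scaling shifts all genes of a library alike, so the order of the regulators against one another is largely kept by construction. Their direction against zero changed only with scaling to Actb. Actb itself rose by 3.26 on the log2 scale after TMM, so a gene that rose less turned negative there by construction. Which scaling is nearest to the RNA content of the cells was not tested. Under RLE, upper-quartile and library-size scaling, all 9 tested regulators kept the sign they had with TMM, and relative to Actb 4 of 9 did. Polg passed 2-fold with upper-quartile factors (log2 fold change 1.04) and with library size alone (1.43), and Tfb2m with library size alone (1.28).

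**Figure D5:**
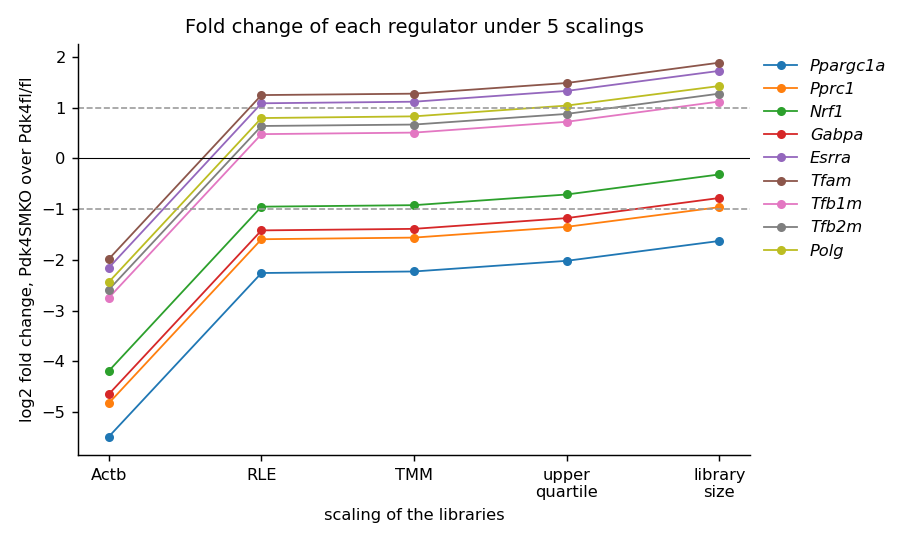
Log2 fold change of the 9 tested regulators, Pdk4SMKO over Pdk4fl/fl, under 5 scalings of the libraries: the ratio to Actb, RLE, TMM, upper quartile and library size alone; each line is a gene and dashed lines mark 2-fold. The order of the genes is the same under all 5, because a scaling shifts all genes of a library alike. Esrra, Tfam, Tfb1m, Tfb2m and Polg lie above zero under 4 scalings and below it relative to Actb.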

How the data were processed

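The authors deposited raw, unnormalized counts of reads on each gene in 6 libraries as 1 table, which also gives gene lengths. Libraries were sequenced as paired-end reads. Library kits differ between the study's methods, NEBNext Ultra, and the labels, SMARTER. The aligner, the counting program and the use of strand are not given in the sources used here. The submitters' processing notes name GRCm 39, while identifiers and coordinates are those of Ensembl's C57BL/6NJ annotation. No row lies on the mitochondrial or the Y chromosome, and transcripts of the mitochondrial genome were not analysed here.

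In R 4.3.3, edgeR 4.0.16 (with limma 3.58.1) was used to filter genes (filterByExpr), scale libraries (TMM) and run the quasi-likelihood test with genotype as the single term, adjusted by Benjamini-Hochberg over all 14085 genes tested. CPM were computed with the TMM factors. The study's methods name DESeq2, which was run as an alternative (1.42.0). Ratios had 0.5 added to each count. Replicates of a genotype differed by more than sampling noise (chi-square per degree of freedom 8.99 to 56.9).

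The 10 regulators, the pathway lists and the marker lists were chosen with earlier results of these data known. All regulators, Pdk4 and Ogdh, which the study's RT-qPCR covered beside Tfam, Tfb1m and Ppargc1a, were named. Of each pathway list, up to 3 genes per direction were named, those with the largest absolute log2 fold change among called genes that averaged 1 CPM or more in 1 genotype, together with genes under the filter. Of each marker list, the most abundant gene per genotype was named. Actb, Xist, Myh11, Ucp1, marker genes at 0 counts and overlapping genes were named outside this rule, after their values were seen. Esrra, Mterf3, Nsun4 and Actn2 were found by the description of an unnamed row, and Twnk, Prorp and Mrm3 by an older symbol. Promoter windows came from RefSeq, GRCm38.p6, matched by symbol. Alternatives were other scalings, DESeq2, other filters and thresholds, protein-coding genes alone, a replicate block, and leaving out each library in turn.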

Additional observations from a re-analysis of the deposited data

How the results depend on the processing

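Scaling had the greatest effect. With library size alone, 1 regulator was called lower and 5 higher. Pprc1 (-0.96) and Gabpa (-0.78) then lay under 2-fold, and Tfb1m (1.12), Tfb2m (1.28) and Polg (1.43) above it. Upper-quartile factors put Polg at 1.04, above 2-fold. Relative to Actb, 9 regulators were lower and 0 higher, and of the pathway genes 93 were lower and 0 higher. Nrf1 was then at -4.19, past 2-fold, and Esrra (-2.15), Tfam (-1.98), Tfb1m (-2.75), Tfb2m (-2.59) and Polg (-2.44) reversed. The scaling to Actb moved the split of all genes to 11724 lower and 716 higher, library size alone to 2390 and 6184, and upper-quartile factors to 3220 and 5122, from 3733 and 4616 with TMM. With no fold limit 4 regulators were higher, and also 4 with a limit of 1.5-fold. DESeq2 called 3 regulators lower and 2 higher.

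Leaving out each library in turn kept 3 regulators called lower and 2 higher. The log2 difference of the Tfb1m to Tfb2m ratio ranged from -0.49 to 0.000427, the highest without Pdk4SMKO replicate 3. That of Tfam to Polg ranged from 0.10 to 0.98 and that of Ppargc1a to Ppargc1b from -1.73 to -0.70. Whether replicate numbers pair the samples was not settled. Deviations from the genotype means correlated at 0.0477, 0.0947 and 0.234 for equal numbers, the last being the highest of all pairs. Pdk4fl/fl replicate 1 correlated better with Pdk4SMKO replicate 2 (0.0721). For unequal numbers the correlations ran from -0.188 to 0.0721. With the replicate number as a block, 3704 genes were lower and 4577 higher, and 3 and 2 of the regulators. Depth limits Ppargc1b, at 1 to 8 counts, and Tfb1m, at 22 to 74.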
